A study of Jatropha curcas with 15 samples.

Results

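Of the 41651 features of an array built for *Jatropha curcas* (physic nut, an oilseed shrub), 87 were lower in inflorescence buds at 3 h after spraying with the synthetic cytokinin 6-benzyladenine (BA) and close to their starting level at 12, 24 and 48 h. A feature is a spot of identical 60-base oligonucleotides, and each of the 87 had 1 spot on every array. The members were selected on the authors' log2 table. D3, D12, D24 and D48 are the means of the 3 arrays at 3, 12, 24 and 48 h minus the mean of the 3 arrays at 0 h. A member had D3 at or below -0.8, the other 3 differences between -0.5 and 0.5, and a signal well above background on all 15 arrays, which 32303 features had. Because the rule used every contrast with 0 h and every array, the members' levels and differences are a description and carry no test. The same limits with the sign turned gave 180 features that were higher at 3 h only.

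Flower buds of 1-year-old field-grown plants were sampled at 5 time points, from 0 h, through 3, 12 and 24 h, to 48 h after 1 mM BA was applied, with 3 biological replicates per time point and 1 one-colour Agilent array per replicate. All 15 arrays were labelled as buds given BA, and the arrays of 0 h are the starting point. No buds sprayed without BA were measured, so BA and spraying itself cannot be told apart in any difference from 0 h. At 3 and 12 h the time of day cannot be told apart from them either, while 24 and 48 h are whole days after 0 h. RNA was taken from whole buds, and fewer cells of a type cannot be told apart from less RNA per cell. On each array 79.0% to 84.0% of the features were well above background. Of 10 floral and meristem genes fixed as markers of flower buds, 9 were well above background on all 15 arrays, and the feature of *PISTILLATA*, a gene for petal and stamen identity, was so on 5. Their summed linear intensity was 69336 to 77890 at 3 h, against 77916 to 95173 at 0 h, and that of the 3 features for photosynthetic proteins was 169812 to 203370 at 3 h, against 143444 to 185599 at 0 h. Singly, D3 of the photosynthetic features was 0.21 for CUST_31870, the brightest, 0.86 for CUST_11579 and 1.39 for CUST_37715. The last was well above background on 11 arrays. The seed protein oleosin 2, well above background on 9 arrays, had a linear intensity of 6.59 to 12.5 at 3 h, against 9.23 to 11.1 at 0 h. At 12, 24 and 48 h oleosin 2 had 90.1 to 644, 352 to 605 and 148 to 239. The floral and meristem sum was then 49299 to 67824, 75270 to 78499 and 69253 to 81074. That of the photosynthetic proteins was 66097 to 100118, 78638 to 103652 and 110547 to 155484. The part of these markers in the members' values was not tested.

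Cytokinins are plant hormones that promote cell division and keep shoot and flower meristems active. In *Arabidopsis* they are sensed by histidine kinases, and the signal passes by phosphotransfer to response regulators in the nucleus, some of which switch on transcription within minutes to hours while others, of type A, dampen the response. Cytokinin acts against abscisic acid (ABA), a hormone of drought response and dormancy. ABA is bound by receptors of the PYR/PYL/RCAR family, which then block type 2C protein phosphatases and so release kinases that would otherwise be held inactive.

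A gene name or a description was read for 3 of the 87 features. The study's lists of annotated features and of oligonucleotides were both held only in part here, with descriptions for 966 features and sequences for 2901, so the other 84 members are given by their feature names. CUST_10876 was listed as *PYL4* (*RCAR10*), a member of that ABA receptor family. CUST_2522 was described as a putative UDP-glucuronosyltransferase after its castor bean match, an enzyme class that attaches a sugar acid to small molecules. CUST_21631 matched a predicted protein of grapevine with no known function. What kinds of genes the 84 belong to was not analysed here. The oligonucleotides of 7 members were among those read, and they are shown because they let these members be identified. They are printed as listed, and capitals mark the stretch that CUST_10359 and CUST_10967 share.
CUST_10876: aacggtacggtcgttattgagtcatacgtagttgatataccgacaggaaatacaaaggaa
CUST_2522: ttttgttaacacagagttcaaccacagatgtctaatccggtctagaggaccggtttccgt
CUST_21631: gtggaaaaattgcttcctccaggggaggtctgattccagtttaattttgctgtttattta
CUST_10359: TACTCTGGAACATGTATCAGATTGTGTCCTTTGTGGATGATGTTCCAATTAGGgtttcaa
CUST_10967: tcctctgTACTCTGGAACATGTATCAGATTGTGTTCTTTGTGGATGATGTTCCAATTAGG
CUST_11482: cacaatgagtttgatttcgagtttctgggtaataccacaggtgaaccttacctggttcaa
CUST_11595: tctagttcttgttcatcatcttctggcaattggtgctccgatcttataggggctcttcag
The last 53 bases of CUST_10967 matched the first 53 of CUST_10359 with 1 difference, C28T counted from the 5′ end of CUST_10359, so most of the sequence of this pair is the same. None of the other 5 shared a run of 16 bases with any of the 2901 oligonucleotides read.

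D3 of the 87 members had a median of -0.99 and lay between -1.81 and -0.80 on the log2 scale, which is 1.74- to 3.51-fold lower at 3 h with a median of 1.98-fold. The fall was 2-fold or more in 40 members. On the 3 arrays of 3 h the median difference of the members from their 0 h mean was -1.21, -0.85 and -1.09, and on the arrays of 0 h it was -0.09, 0.08 and 0.01. All 87 members were below their 0 h mean on each of the 3 arrays of 3 h, with values up to -0.16 on replicate 2. Members were selected on the mean of these arrays, so nothing is read from this agreement. Replicate 2 of 3 h was the highest of its time point in 61 members and the lowest in 2. Every array of 3 h was at or below -0.8 in 38 members. The 3 h arrays all lay below the 0 h arrays in 81 members, beside 21.5% of the 32303 features well above background on all arrays, and since the rule used this contrast nothing is read from the count.

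**Figure D1:**
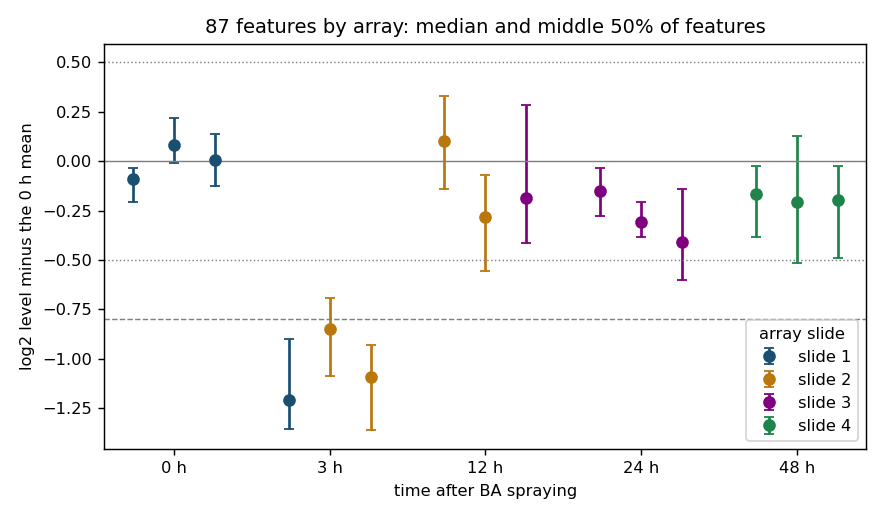
Median (point) and middle 50% (bar) of the 87 members' log2 level minus each member's 0 h mean, on each of the 15 arrays by time after BA spraying, coloured by the slide that carried the array. The medians of the 3 arrays of 3 h are -1.21, -0.85 and -1.09, and those of the 9 later arrays lie between -0.41 and 0.10; the dashed line is the limit of -0.8 and the dotted lines the band of ±0.5.

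Each slide carried up to 4 arrays, and the time points were not spread evenly over the slides. Slide 1 held the 3 arrays of 0 h and replicate 1 of 3 h, and slide 2 held the other 3 h arrays with replicates 1 and 2 of 12 h. Slide 3 held replicate 3 of 12 h and the arrays of 24 h, and slide 4 those of 48 h. Slide 1 was scanned on day 1 and the other slides on day 2. On slide 1 the 3 h array minus the 0 h mean had a median of -1.21 over the members, between -2.04 and -0.24, and on slide 2 the 3 h arrays minus the 12 h arrays had a median of -0.95, between -1.89 and -0.10. All 87 members were negative within both slides, beside 18783 of the 32303 features on slide 1 and 19182 on slide 2. The rule used these arrays, so nothing is read from the count. The median over all 32303 features was -0.05 on slide 1 and -0.07 on slide 2.

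At later times more members lay below their 0 h mean than above it. No array of 12, 24 or 48 h shared a slide or scan day with 0 h. Slide and scan day thus cannot be told apart from time in D12, D24 and D48. The later differences share the 0 h arrays with D3 and were used by the rule, so their signs are a description from which no further change is read. D12, D24 and D48 had medians of -0.18, -0.31 and -0.29, beside 0.05, -0.0033 and 0.01 over the 32303 features. Of the 87 members, 59 had a negative D12, 78 a negative D24 and 67 a negative D48, with 44 negative in all 3 and 4 positive in all 3. Only 1 member stayed within 0.2 of 0 h at all 3 later times, and 15 stayed within 0.3. Single arrays strayed further than the means, since all 9 later arrays were within 0.5 in 13 members and 4 or more were outside in 18. No later array reached down to the highest 3 h array in 65 members, while 22 had at least 1 that did. Both counts follow in part from the rule, and nothing is read from them.

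Most features that were low at 3 h were not back within the band at every later time. D3 was at or below -0.8 in 572 of the 32303 features, and 485 of them left the band at a later time. Of the 485, 181 were below -0.5 at 12, 24 and 48 h alike. D12 was below -0.5 in 279 and above 0.5 in 69. D24 was below the band in 341 and above it in 9, and D48 below it in 317 and above it in 38. The band was missed through D12 alone by 59, through D24 alone by 19 and through D48 alone by 35. The last 3 features inside the limit on D3 were CUST_21631 with -0.810, CUST_33094 with -0.802 and CUST_3560 with -0.801. Just outside were CUST_16297 with -0.798, CUST_1568 with -0.792 and CUST_19891 with -0.792, so the border runs through a continuous range. The largest later differences inside the band were those of CUST_7915 with -0.493 at 24 h and CUST_7799 with 0.492 at 12 h. Outside it, CUST_27749 missed with a value just below -0.50 at 48 h, CUST_35029 with -0.505 at 12 h and CUST_16580 with -0.507 at 48 h.

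**Figure D2:**
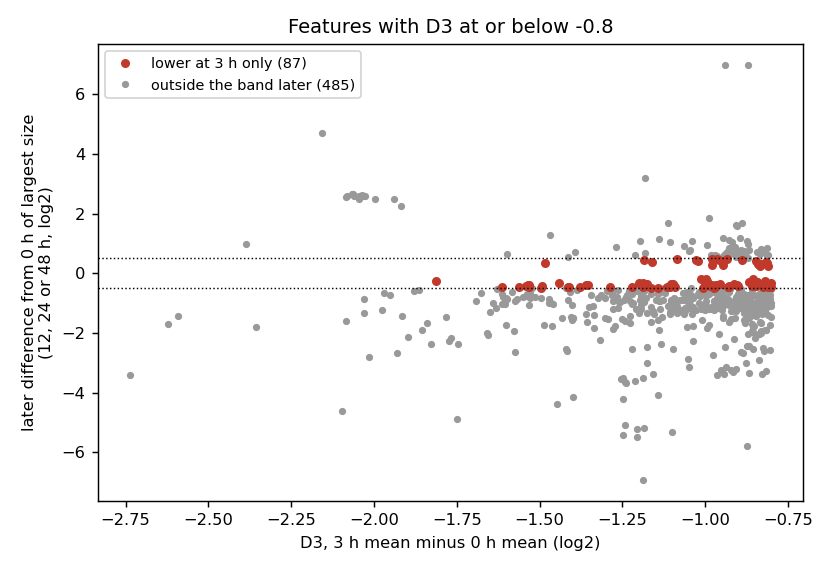
D3 (x axis, log2) against whichever of D12, D24 and D48 was largest in size (y axis, log2) for the 572 features with D3 at or below -0.8. The 87 members (red) lie between the dotted lines at -0.5 and 0.5, and most of the other 485 (grey) lie below them.

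The members were spread over the range of signal. Their mean log2 level over the 15 arrays had a median of 11.05 and ran from 6.13 to 16.64, beside a median of 11.33 over the 32303 features. At a level of 8 or below there were 13 members, and at 14 or above 15. The SD between arrays of a time point, pooled over the 5 time points, had a median of 0.282 in the members and 0.152 in the 32303 features. In the features higher at 3 h only it was 0.271. The members' spots lay in rows 2 to 523 and columns 1 to 83 of the array, which has 532 rows and 85 columns.

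**Figure D3:**
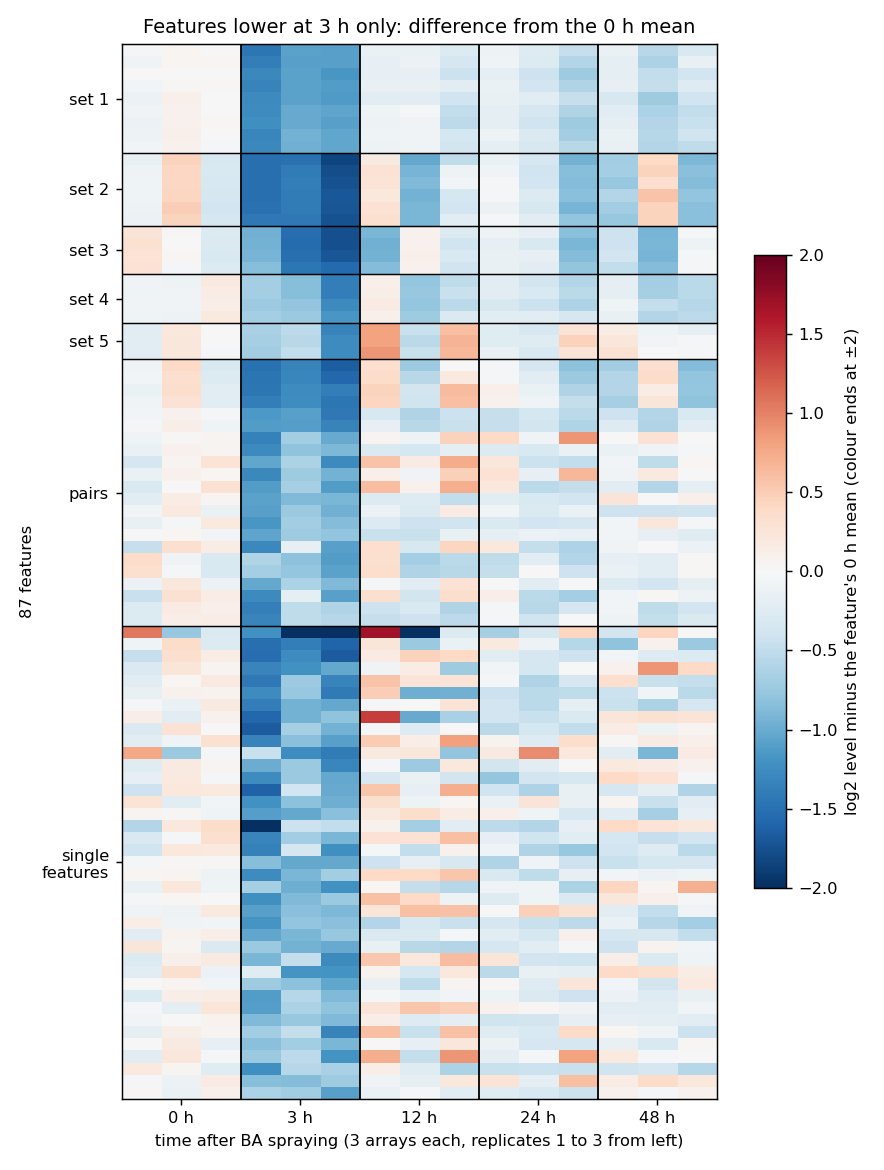
Log2 level minus the 0 h mean for each of the 87 members (rows) on the 15 arrays (columns, 3 per time point), grouped into 5 sets of features with like values, 11 pairs and 39 single features. The 3 columns of 3 h are blue throughout, and within a set the later arrays differ in the same way from row to row.

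The member with the lowest D3 was CUST_10876, the feature of the ABA receptor gene *PYL4*, with -1.81. Its log2 level was 8.64, 7.81 and 7.66 at 3 h, against 10.90, 9.08 and 9.56 at 0 h, so the arrays of 3 h lay below those of 0 h by a gap of 0.44. At 12 h it was 11.54, 7.71 and 9.58. One array of 12 h was thus the highest of all 15 and another was within the range of 3 h, although the mean of the time point was 0.24 below 0 h. The 24 h arrays gave 9.19, 9.53 and 10.28, and the 48 h arrays 9.47, 10.28 and 9.86. The pooled SD was 1.03, the highest of the 87 members. With 1 array of 3 h or 0 h left out, D3 lay between -2.19 and -1.29.

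**Figure D4:**
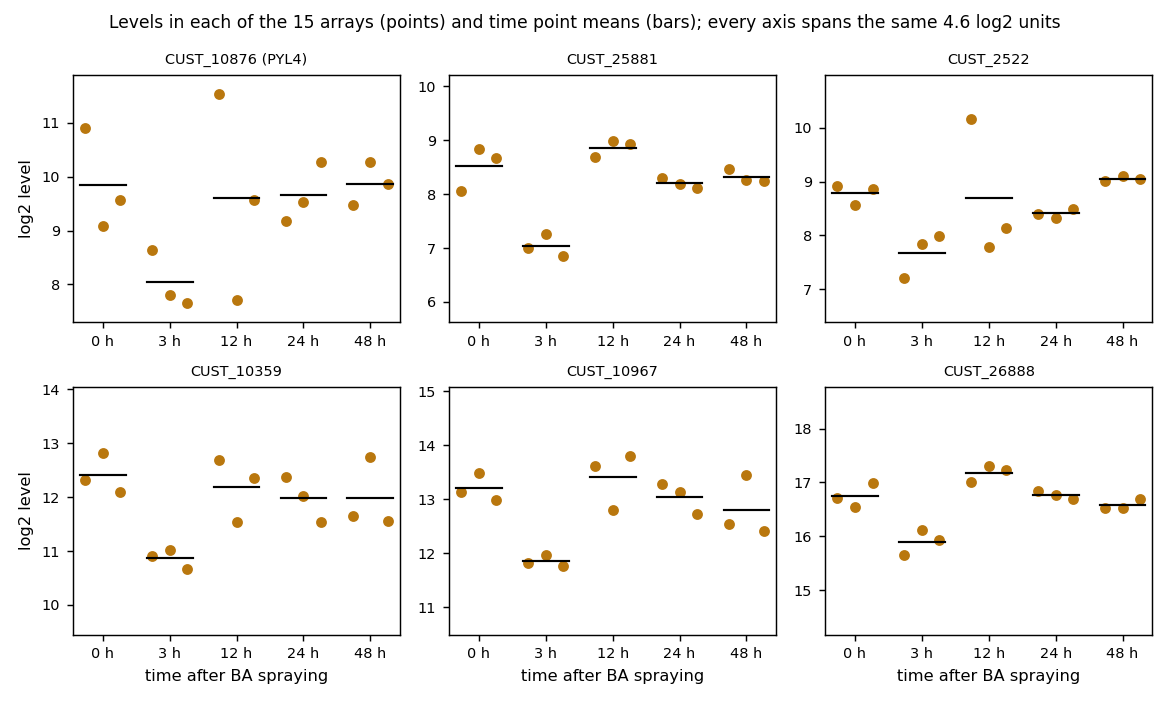
Log2 level of 6 members on each of the 15 arrays (points, 3 per time point) with time point means (bars), every y axis spanning the same width. The 3 h points are the lowest in each panel except for an array of 12 h in CUST_10876 and in CUST_2522, and the 12 h points of CUST_10876 run from 7.71 to 11.54.

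The other ABA features came from the study's list of features that resemble *Arabidopsis* hormone genes. Of its 24 ABA features 21 were well above background on all arrays, 23 were tested between 3 h and 0 h with limma, and CUST_10876 was the only one among the 87. The fit used log2 intensities scaled to the 75th percentile of each array. In it *PYL4* had a log2 change of -1.82 ± 0.76 (SE, adjusted p = 0.142) and was not called, given as a description because the rule used this contrast. Lower at an adjusted p of at most 0.05 was 1 of the 23, and higher was 1, beside 6.6% lower and 5.52% higher of the 34469 features tested. The lower feature was *HAB1*, a type 2C phosphatase that PYL receptors block in *Arabidopsis*, with a log2 change of -0.33 ± 0.10 (SE, adjusted p = 0.0485). It was called under 7 of the 26 alternatives tried for the fit, with an adjusted p of 0.0351 to 0.583, and leaving out any of 10 arrays, among them replicates 1 and 3 of 3 h and replicates 2 and 3 of 0 h, ended the call with 0.0542 to 0.161. The higher one was *NCED3*, a rate-limiting enzyme of ABA synthesis, with 1.18 ± 0.31 (adjusted p = 0.0287), called under 21 of 25 alternatives with 0.00486 to 0.115. That call ended without replicate 1 or 3 of 3 h, with 0.115 and 0.0613, and without replicate 2 or 3 of 0 h, with 0.0904 and 0.0978. The feature of *OST1*, a kinase downstream of the receptors, had 0.17 ± 0.12 (adjusted p = 0.405). *GUN5* (*ABAR*), listed as another ABA receptor, had 0.16 ± 0.18 (adjusted p = 0.614) at 3 h.

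The next members in order of D3 moved as a block. Complete linkage of the members' 15 differences from 0 h, with a root mean square distance of at most 0.15, put 26 members into 5 sets of 3 or more, 22 into 11 pairs and left 39 alone. This grouping was made after the values were seen, and it is a description. By the paper the array had more features than transcripts. Whether features of a set read the same transcript was not tested, so a set is not a count of genes. Set 2 held 6 of the 10 members with the lowest D3, namely CUST_13100 with -1.61, CUST_6898 with -1.56, CUST_10359 with -1.54, CUST_31489 with -1.53, CUST_15948 with -1.53 and CUST_16891 with -1.53. Their mean levels ran from 10.81 to 14.47. The median difference of the set from 0 h was -0.10, 0.44 and -0.33 on the arrays of 0 h and -1.50, -1.40 and -1.74 on those of 3 h. The 12 h arrays had 0.28, -0.92 and -0.28, the 24 h arrays -0.06, -0.33 and -0.86, and the 48 h arrays -0.69, 0.44 and -0.83. The 3 h arrays were the lowest of the 15, while replicate 2 of 12 h, replicate 3 of 24 h and replicates 1 and 3 of 48 h were also well below 0 h. The grouping used the differences between arrays of a time point as well, so the correlations within time points describe it and nothing is read from them. The correlation of their deviations from the time point means over the 15 arrays was 0.98 to 1.00 between features of the set, with a median of 0.99, and 0.12 in the median with the other members. Their spots lay in rows 46 to 480 and columns 5 to 71, so they were not neighbours on the array.

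Of the remaining members among the 10 lowest, CUST_16792 with D3 of -1.50 and CUST_15837 with -1.49 followed set 2 closely, with correlations of 0.99 and 0.99 to its mean within time points. CUST_25881, with -1.48, did not belong to any set. It was dim, with a log2 level of 7.00, 7.26 and 6.85 at 3 h against 8.06, 8.84 and 8.66 at 0 h, and it was slightly above 0 h at 12 h with 8.69, 8.98 and 8.92. The 24 h arrays gave 8.31, 8.19 and 8.11 and the 48 h arrays 8.47, 8.27 and 8.24, so no array of a later time reached the range of 3 h. With normexp background correction its D3 was -1.03.

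The overlapping oligonucleotides gave like values at 3 h and less alike ones at 12 h. CUST_10359, in set 2, had a log2 level of 10.91, 11.02 and 10.68 at 3 h against 12.32, 12.82 and 12.09 at 0 h. CUST_10967, with a pair partner in CUST_8391, had 11.82, 11.96 and 11.76 at 3 h against 13.13, 13.49 and 12.99 at 0 h. D3 was -1.54 for CUST_10359 and -1.35 for CUST_10967. On the arrays of 12 h CUST_10359 differed from its 0 h mean by 0.28, -0.88 and -0.05 and CUST_10967 by 0.42, -0.40 and 0.61. D12 was thus -0.22 for CUST_10359 and 0.21 for CUST_10967, on the 2 sides of the starting level. Within time points CUST_10967 followed the mean of set 2 with a correlation of 0.93.

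**Figure D5:**
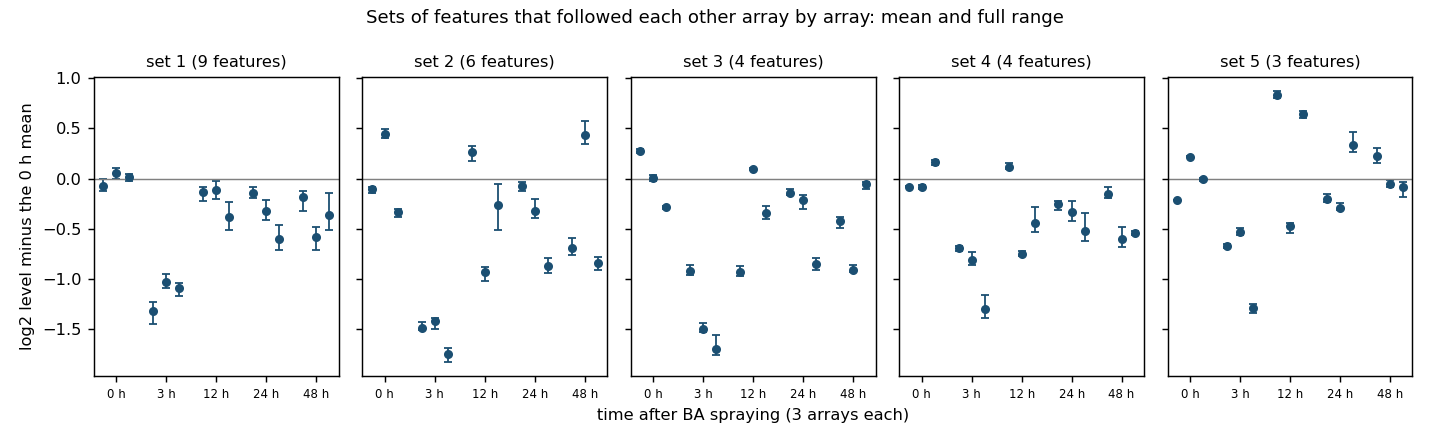
Mean difference from 0 h (point) of the features of each of the 5 sets on the 15 arrays by time after BA spraying, with the range over the features of the set as bars. At 12 h the mean of set 2 ran from -0.93 to 0.26 over the 3 arrays and that of set 5 from -0.48 to 0.83. In set 1 the arrays of 12 h were close together, from -0.38 to -0.12.

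Set 1 was the largest, with 9 features including CUST_11482. Its median difference from 0 h was -1.30, -1.07 and -1.08 on the arrays of 3 h and -0.14, -0.12 and -0.36 on those of 12 h. The 24 h arrays had -0.15, -0.33 and -0.60, and the 48 h arrays -0.18, -0.59 and -0.40. D3 ran from -1.20 to -1.10 and the mean level from 11.99 to 15.27. CUST_29732, the third brightest of the 87, was in this set, with a log2 level of 14.38, 14.73 and 14.64 at 3 h against 15.62, 15.76 and 15.66 at 0 h. The arrays of 3 h were the lowest of the 15, and none of the later arrays reached them.

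Set 3, with 4 features and D3 between -1.41 and -1.29, was low again on single later arrays. Its median difference was -0.94, -1.51 and -1.74 on the arrays of 3 h and -0.93, 0.09 and -0.35 on those of 12 h. The 24 h arrays had -0.15, -0.20 and -0.86, and the 48 h arrays -0.41, -0.92 and -0.04. Replicate 1 of 12 h and replicate 2 of 48 h were thus level with the highest array of 3 h. Set 4 also had 4 features, with mean levels from 13.83 to 15.59, and D3 between -0.97 and -0.86. Its median difference was -0.69, -0.82 and -1.33 on the arrays of 3 h and 0.11, -0.77 and -0.48 on those of 12 h, so that replicate 2 of 12 h lay within the range of 3 h. It held CUST_30133, the second brightest member, with 15.30, 15.24 and 14.75 at 3 h against 15.95, 15.96 and 16.15 at 0 h. Set 5 had 3 features with D3 between -0.84 and -0.81 and was above 0 h at 12 h on 2 arrays of 3, with a median difference of 0.81, -0.45 and 0.66. At 3 h it was -0.67, -0.53 and -1.26.

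Some features that were not members had values near the mean of a set. In 13 non-members the root mean square distance to the mean of a set was at most 0.15 and the correlation within time points at least 0.9, of which 2 followed set 1, 2 set 2, 3 set 3 and 6 set 5. The 6 that followed set 5 had D3 between -0.78 and -0.70, just short of the limit. The other 7 left the band at 24 h or 48 h, with CUST_10866, a follower of set 2 with D3 of -1.58, at -0.62 at 24 h.

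The brightest member was CUST_26888, with a mean log2 level of 16.64. It had 15.65, 16.12 and 15.94 at 3 h against 16.70, 16.55 and 16.99 at 0 h, and at 12 h it stood above 0 h with 17.00, 17.30 and 17.23. D3 was -0.85 and D12 0.43. The 24 h arrays gave 16.84, 16.77 and 16.69 and the 48 h arrays 16.53, 16.53 and 16.69, so the arrays of 3 h did not overlap with those of any other time.

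CUST_2522, the putative UDP-glucuronosyltransferase, had a log2 level of 7.21, 7.84 and 7.98 at 3 h against 8.91, 8.57 and 8.87 at 0 h, and D3 was -1.10. At 12 h it had 10.16, 7.78 and 8.13, so that 1 array was the highest of the 15 and another lay within the range of 3 h. The 24 h arrays gave 8.40, 8.33 and 8.50, and the 48 h arrays 9.02, 9.09 and 9.04, where the arrays were close together. CUST_21631, the feature with the grapevine match, was dim. It had 5.52, 5.52 and 5.67 at 3 h against 6.34, 6.26 and 6.54 at 0 h, and the groups did not overlap. Its D3 of -0.81 was -0.25 with normexp background correction, and that of CUST_33094, at a mean level of 6.57, was -0.34 in place of -0.80. CUST_11595, with a known sequence and no name, had 9.22, 9.30 and 9.49 at 3 h against 10.39, 10.36 and 10.24 at 0 h.

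In 6 members the arrays of 3 h and 0 h overlapped, and these are named for that, after their values were seen. CUST_26413 had 12.97, 14.10 and 13.17 at 3 h against 13.80, 14.58 and 14.41 at 0 h, so replicate 2 of 3 h lay above replicate 1 of 0 h. CUST_27295, its pair partner, had 13.52, 14.61 and 13.71 at 3 h against 14.35, 15.09 and 14.94 at 0 h, with a correlation of 0.999 between this pair within time points. CUST_31944 and CUST_29086 overlapped through the same pair of arrays, with replicate 2 of 3 h at 14.38 and 8.10 and replicate 1 of 0 h at 14.34 and 8.05. CUST_3892 rested on replicate 1 of 3 h, with 8.90, 10.51 and 10.44 at 3 h against 10.36, 11.15 and 11.31 at 0 h. CUST_26874 varied most at 0 h, with 11.99, 11.20 and 11.05 at 3 h against 13.23, 11.71 and 12.40 at 0 h.

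No other feature listed for a hormone or flowering gene was among the members. Whether any of the 84 members without a name belongs to 1 of these genes was not analysed here. None of the 32 features of the study's flowering list and, apart from *PYL4*, none of the 115 of its hormone lists belonged to the 87. Of the 29 flowering features tested, 8 were lower at 3 h and 1 higher with limma, and of 113 hormone features 13 were lower and 8 higher, where 6.6% of all features tested were lower and 5.52% higher. Among the 27 cytokinin features 4 were lower and 3 higher, and *IPT5*, an enzyme of cytokinin synthesis, had -1.37 ± 0.26 (SE, adjusted p = 0.00579), with 0.111 under scan day as a fixed block. The type-A response regulator *ARR3* had 1.18 ± 0.34 (adjusted p = 0.0421), with 0.224 for a fixed slide block and 0.321 for one of scan day. The call also ended without any 1 of the arrays of 3 h or 0 h and of 4 others, with 0.0502 to 0.126. *GIGANTEA*, a gene of the circadian clock and of day-length response, was the higher feature of the flowering list, with 3.75 ± 0.13 (adjusted p = 5.09e-09). There were 3 lower and 1 higher of 27 for auxin, 4 and 1 of 12 for brassinosteroids, 0 and 2 of 10 for ethylene, 1 and 0 of 8 for gibberellin, 1 and 1 of 12 for jasmonate, and 0 and 0 of 6 for the type written SAT.

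In the same fit 76 of the 87 members were called lower at 3 h, beside 6.6% of the 34469 features tested. The rule used this contrast, so nothing is read from the count. The median standard error of the 3 h change was 0.217 in the members and 0.129 in all features tested. With slide as a fixed block, where replicate 1 alone links 3 h to 0 h, 46 members were called, beside 3.96% of the features tested. At 3 arrays per time point the number of arrays limits the precision.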

How the data were processed

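RNA of 15 samples of inflorescence buds was hybridised to 1-colour arrays, 1 per sample. The authors deposited spot intensities from Agilent Feature Extraction 10.7.3.1, background-subtracted and detrended within each array, with the scanned median spot and background intensities. They also deposited a table of log2 values, made per the paper's methods in GeneSpring GX; its scaling between arrays is not given in the sources used here, and its minimum and maximum were the same on every array. Levels and D values come from this table.

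The limma counts used log2 processed intensity minus the 75th percentile of each array, with the time point as the only factor over all 15 arrays (limma 3.58.1, R 4.3.3), in the 34469 features whose signal passed the scanner's background test on every array of 1 or more time points, with Benjamini-Hochberg adjustment and an adjusted p of at most 0.05. Spots marked as outliers were left out, 39 to 162 per array. Tables were made in Python 3.11.15 with pandas 2.3.3 and figures with matplotlib 3.10.9. Slides and scan days were read from the array files. Alternatives were other scalings, normexp (offset 50) with quantile normalization, other limits and filters, slide, scan day and replicate number as blocks, and leaving out each array.

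The members and gene lists were chosen with earlier results of these data known. Named are the 10 members with the lowest D3, those in the paper's tables, those sharing a target, the 3 brightest, the 3 on each side of the D3 limit, and the 2 lowest of any functional class with 3 or more members; others were chosen after their values were seen. Names and sequences come from the paper's supplementary tables, of which the lists of annotated features and of oligonucleotides were held only in part. A check of GC content was void, since 7 of 87 members had a sequence.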

Additional observations from a re-analysis of the deposited data

How the results depend on the processing

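The rule gave 71 to 105 members under the 4 other ways of scaling and background correction. With the median of the 3 arrays it gave 59, of which 43 were among the 87. Of the 87 members, 87 were also members with the 75th percentile, 84 with the median of each array, 56 with normexp and quantile normalization and 39 with no scaling. Without scaling the median of all 32303 features shifted by 0.11, 0.26, 0.19 and 0.31 at 3, 12, 24 and 48 h. A limit of -1 or -0.6 on D3 left 40 or 241 members and a band of 0.4 left 40. With 2 requirements added after seeing the data, all 9 later arrays within the band or all 3 arrays of 3 h at or below the limit, 13 and 38 were left. Leaving out single arrays, the rule gave 65 to 123 members, of which 53 to 87 were among the 87, the members without overlap between 3 h and 0 h numbered 81 to 86, the median D3 was -1.14 to -0.95, and limma called 52 to 81 members lower, beside 3.19% to 7.43% of all features tested. Fixed blocks for slide and for scan day gave 46 and 46 limma calls among the members, beside 3.96% and 3.37% of all features tested, and 42 were left with a 2-fold threshold added, beside 0.896%. No scaling gave 58, beside 1.28%, and the other settings gave 69 to 76, beside 4.46% to 7.16%. Same-numbered arrays of different time points correlated between -0.27 and 0.38 in their deviations over 30 pairs, with a median of 0.06. Arrays of different numbers were not compared, so whether the numbers paired the samples was not settled. The replicate block gave 75 limma calls among the members, beside 6.15% of all features tested. D3 of the 17 members followed through the alternatives stayed below 0 throughout. These members were selected on D3 in the same arrays, so nothing is read from the sign. Normexp moved D3 of the dim features CUST_25881, CUST_21631 and CUST_33094 by more than their SD. Its offset of 50 by itself shrinks the differences of dim features, so whether dim features are less certain in general was not settled.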
